A study of Mus musculus with 16 samples.

Results

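MiR-203 and miR-205 (mmu-miR-203 and mmu-miR-205), the pair of miRNAs best known from the keratinocytes of the epidermis, were followed in mouse dorsal skin with and without the nuclear receptor PPARβ/δ and with and without chronic UVB. They were taken by name from the arrays, 2 of the 577 miRNAs that the arrays list, by a rule that uses no measured value. Each of 16 arrays carried the total RNA of 1 skin sample, with 4 arrays in each of 4 groups: Ppard+/+ (WT) and Ppard-/- (KO) skin without irradiation, and skin of both genotypes after 12 weeks of UVB, given 3 times a week at 70 mJ/cm2. Per the methods the animals were hairless albino SKH-1 females on a mixed SKH1-C57/Bl6-SV129 background, young adult littermates of both genotypes, the unirradiated ones were sham-manipulated and age-matched, and the chronically irradiated skin was free of lesions. The methods do not state whether that age was the one before irradiation or the one at harvest. Ppard is missing from every cell of the KO animals, so nothing measured here belongs to the keratinocyte alone. Ppard is an mRNA gene that these arrays do not measure, and the genotype labels could not be checked.

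The epidermis renews itself from a basal layer of dividing keratinocytes, whose daughters leave the cycle and differentiate on the way to the surface. MiR-203 is known as a miRNA of the differentiating, suprabasal layers, where it represses the basal transcription factor p63 and so limits the capacity to divide. MiR-205 is known from basal keratinocytes and the hair follicle, where it favours the growth and survival of progenitor cells. Both are used as marks of squamous epithelium and its tumours.

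The mature sequences, taken from RefSeq (GRCm38.p6), are shown because the seed, bases 2 to 8 counted from the 5′ end and printed in capitals, decides which mRNAs a miRNA pairs with. The third sequence is the opposite arm of the miR-203 hairpin, which the array lists as miR-203* and which served as a second readout of the same precursor.
mmu-miR-203-3p: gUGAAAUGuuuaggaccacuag
mmu-miR-205-5p: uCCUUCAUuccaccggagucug
mmu-miR-203-5p (miR-203*): aGUGGUUCuugacaguucaaca

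The 3 seeds differ, and 0 other mature mouse miRNAs of the RefSeq table share any of them, so each miRNA stands alone in its seed family. All 3 are 22 bases long, and GC made up 40.9% of miR-203 and 54.5% of miR-205. In the 76-base hairpin of Mir203 the mature miR-203 spans bases 48 to 69 and the opposite arm bases 10 to 31. In the 68-base hairpin of Mir205 the mature arm is the 5′ one, bases 7 to 28. Mir203 lies between the coding genes Aspg and Kif26a and overlaps Gm51289, a second miRNA gene, while Mir205 lies in the non-coding Mir205hg between the coding genes Camk1g and Plxna2. Per the array annotation (mm9) the probes of miR-203 cover chromosome 12, 113369142 to 113369159, and those of miR-205 cover chromosome 1, 195333697 to 195333712. The array lists no miRNA under the name of the other arm of miR-205.

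Both miRNAs were detected on all 16 arrays and were among the brightest features of the skin. By signal, miR-203 ranked between 1 and 7 of 577 and miR-205 between 3 and 9. MiR-203* was detected on all 16 arrays too, at ranks from 91 to 116. The error that the scanner software gives for a single value lay between 7.23 and 7.86% for the pair.

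The summed signal of all miRNAs ran from 171756 to 395740 units per array and was highest in KO skin without UV (255016 to 395740), so values of different arrays are compared after scaling. Replicates of a group correlated at r = 0.976 to 0.996 over the tested miRNAs, against 0.961 to 0.997 for arrays of different groups. The irradiated arrays lay on 1 slide and the others on another, with local backgrounds of 119 to 130 and 63.3 to 65.8 units, so irradiation and slide cannot be told apart in any comparison of UV with none. The signals are those of whole skin, in which fewer keratinocytes and less of a miRNA per keratinocyte cannot be told apart.

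Chronic UVB asked first whether these keratinocyte miRNAs differ in irradiated skin. MiR-203 rose in KO skin, by 0.59 on the normalized log2 scale (1.5-fold), and its opposite arm rose in both genotypes, by 0.52 (1.43-fold) in WT and 0.55 (1.46-fold) in KO. MiR-205 rose by 0.32 (1.25-fold) in KO skin, and in WT skin the difference was 0.03. Normalized log2 signals are those left after quantile normalization, which gives every array the same set of values, and a rise or fall is written only where the limma adjusted p was under 0.05. Without any normalization the KO differences of miR-203, miR-203* and miR-205 turned negative, at -0.05, -0.0019 and -0.26, as did the median of all tested miRNAs, at -0.48. Relative to that median miR-203 was higher by 0.43 and miR-205 by 0.22.

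In WT skin without UV the scaled signal of miR-203 was 9004, 13488, 10198 and 9669 units on arrays 1 to 4, and after UV it was 12110, 10976, 12217 and 15920 units. The scaled signal is the total signal of a miRNA divided by the array's 75th percentile over miRNAs detected everywhere. That percentile is taken relative to its geometric mean over the arrays, so the units stay those of intensity. 1 unirradiated array, replicate 2, stood above 3 of the irradiated ones, and replicate 4 of the irradiated group was highest. In KO skin the values were 9552, 12524, 9650 and 13052 units without UV and 14051, 13489, 14516 and 17446 units after it. Here all 4 irradiated arrays stood above all 4 others, as they did for 12.3% of the 228 tested miRNAs on this scale.

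On the normalized log2 scale miR-203 averaged 13.35 ± 0.13 (SD, n = 4) in unirradiated WT and 13.39 ± 0.21 in unirradiated KO skin, against 13.65 ± 0.15 and 13.98 ± 0.43 in the irradiated WT and KO groups. In that order no neighbouring pair differed past the threshold where a comparison was fitted: KO minus WT was 0.04 without UV and 0.33 after it. The UV difference was 0.30 in WT (SE 0.18, 95% interval -0.08 to 0.69, limma adjusted p = 0.268), which did not pass, although all 4 irradiated arrays lay above all 4 others, as for 13.6% of tested miRNAs. It was 0.59 in KO (SE 0.18, interval 0.20 to 0.97, limma adjusted p = 0.0284), with 3 of 4 irradiated arrays above every other. At such high ranks quantile normalization moves a value in steps: 3 of the WT UV arrays share the value 13.58, and KO UV replicate 4, where miR-203 was the brightest miRNA, holds 14.59.

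Both outcomes depended on the scale. The KO rise lost its call when scaled to the 75th percentile of detected miRNAs (0.42, limma adjusted p = 0.0658), without KO no UV replicate 1 (adjusted p = 0.0748) and without KO no UV replicate 3 (adjusted p = 0.0827), and was 0.37 without KO UV replicate 4, still called. The WT difference passed with scaling to an invariant set of 83 miRNAs (0.40, limma adjusted p = 0.0171) and to the 75th percentile of all miRNAs (0.41, adjusted p = 0.0292). An exact two-sided permutation test gave p = 0.0286 in WT, the smallest that 4 against 4 arrays can give, and 0.0857 in KO.

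MiR-203* had scaled signals of 131, 187, 159 and 130 units in WT skin without UV and 214, 181, 177 and 245 units after UV, so that 1 unirradiated array lay within the irradiated range. In KO skin it had 158, 178, 143 and 192 units without UV and 232, 202.8, 221 and 270 units after it, with no overlap. On the normalized log2 scale the means were 7.21 ± 0.18 (SD, n = 4), 7.33 ± 0.12, 7.73 ± 0.24 and 7.87 ± 0.17 for unirradiated WT, unirradiated KO, irradiated WT and irradiated KO skin. In both genotypes every irradiated array lay above the unirradiated group, as for 13.6% of tested miRNAs in WT and 11.8% in KO.

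The rise of miR-203* was 0.52 in WT (SE 0.12, limma adjusted p = 0.0109) and 0.55 in KO (adjusted p = 0.00926). Leaving out any 1 array ended neither call, at adjusted p-values up to 0.0361 in WT and 0.0311 in KO. Of 13 other fits at the same threshold, 10 called the WT rise and 12 the KO rise. The exceptions in WT were scaling to the 75th percentile of detected miRNAs (0.43, limma adjusted p = 0.0579), slide row as a term (adjusted p = 0.0512) and a fit of the WT arrays alone (adjusted p = 0.0558).

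MiR-205 showed less. Its scaled signal in WT skin was 8076, 11130, 9160 and 7982 units without UV and 9495, 7414, 8477 and 9903 units after it, so the ranges lay over each other. In KO skin it was 7670, 9981, 8654 and 11766 units without UV and 10481, 10563, 10787 and 11689 units after it. The 4 irradiated KO arrays sat close together, above 3 of the unirradiated ones and below replicate 4 of that group.

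The normalized log2 signal of miR-205 averaged 13.18 ± 0.09 (SD, n = 4) and 13.15 ± 0.15 in unirradiated WT and KO skin, and 13.22 ± 0.15 and 13.47 ± 0.13 in irradiated WT and KO skin. The first 3 of these groups overlapped one another throughout, and KO UV had 2 of 4 arrays above every unirradiated KO array. UV minus none was 0.03 in WT (SE 0.09, 95% interval -0.17 to 0.23, limma adjusted p = 0.857), with the sign turned, at -0.04, by scaling to the 75th percentile of detected miRNAs. It was 0.32 in KO (SE 0.09, interval 0.12 to 0.52, limma adjusted p = 0.0234). The KO call was lost under that scaling (0.21, adjusted p = 0.296), without KO UV replicate 3 (adjusted p = 0.0681) and without KO no UV replicate 1 or 3 (0.0632 and 0.0747), and the exact permutation p was 0.0857.

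In KO skin 2 of 2 miRNAs were thus called higher after UV, where 18.4% of all tested miRNAs were called higher and 29.8% either way. In WT skin 0 of 2 were called, against 9.21% called higher and 16.2% called either way.

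**Figure D1:**
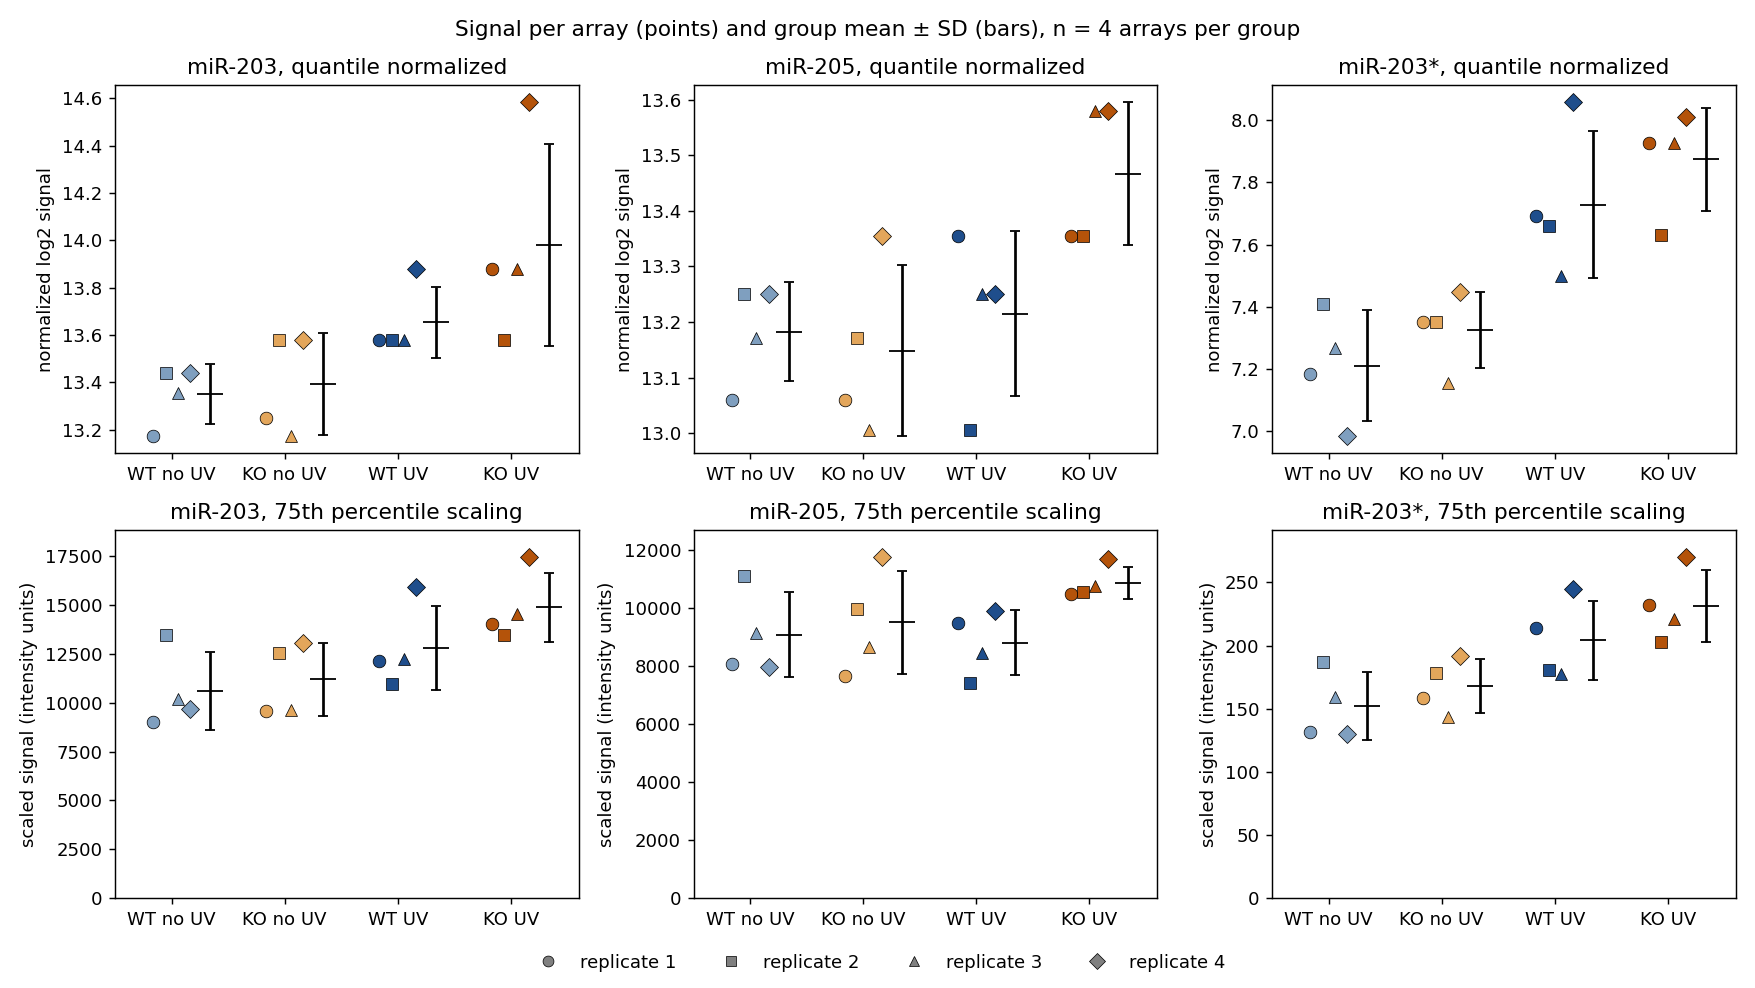
Signal of miR-203, miR-205 and miR-203* on each of 16 arrays, as normalized log2 signal (upper row) and as scaled signal in intensity units (lower row). Points are arrays with a symbol per replicate number, bars are means ± SD of 4 arrays; miR-203* stands higher in both irradiated groups in the upper row, miR-205 in KO UV alone has its mean above 13.4, and without normalization the KO rises disappear.

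The genotype comparison asked whether the receptor sets the level of either miRNA. Without UV, KO minus WT was 0.04 for miR-203 (SE 0.18, 95% interval -0.34 to 0.43) and -0.03 for miR-205 (SE 0.09, interval -0.23 to 0.16), both with a limma adjusted p of 1. By limma 0 of the 228 tested miRNAs (0.0%) were called there, and 36 had an unadjusted p under 0.05. That count depended on the fit and ran from 0 to 111 over 13 others at the same threshold. The 111 came without normalization, and leaving out the miRNAs at the floor on every array also gave calls. The sign for miR-205 turned with other scalings (0.06 with the 75th percentile of detected miRNAs). Within the 2 rows of the unirradiated slide, each with 2 arrays per genotype, the difference was 0.11 and -0.02 for miR-203 and -0.04 and -0.03 for miR-205 on the normalized log2 scale. In log2 scaled signal it was -0.01 and 0.18 for miR-203 and -0.12 and 0.24 for miR-205, so the rows differed in sign. Without normalization both were higher in KO, by 0.62 (limma adjusted p = 0.0301) and 0.60 (adjusted p = 0.0199), where the median of all tested miRNAs was higher by 0.52. MiR-203* differed by 0.11 (limma adjusted p = 0.756), and by -0.03 after normexp background correction.

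After UV, KO minus WT was 0.33 for miR-203 (SE 0.18, interval -0.06 to 0.71, limma adjusted p = 0.645) and 0.25 for miR-205 (SE 0.09, interval 0.05 to 0.45, limma adjusted p = 0.335), and neither passed, against 2.19% of tested miRNAs called, all of them lower in KO. Without normalization both signs turned, to -0.09 and -0.0027, with a median of -0.25 over all tested. For miR-205 the scaled signals of the 4 KO arrays, 10481 to 11689 units, lay above those of all 4 WT arrays, 7414 to 9903 units, as they did for 3.95% of the tested miRNAs. That difference was 0.31 in log2 scaled signal (1.24-fold). On the normalized scale the same groups overlapped, with 2 of 4 KO arrays above every WT array. On the irradiated slide WT arrays fill one row and KO arrays the other, so genotype and row cannot be told apart there. MiR-203* differed by 0.15 (limma adjusted p = 0.855), and by -0.13 without normalization.

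The interaction, the UV difference in WT minus that in KO, is free of any slide effect of the same size in WT and KO. It is not free of slide row, since on the irradiated slide each genotype fills its own row. It was -0.28 for miR-203 (SE 0.25, 95% interval -0.83 to 0.26, limma adjusted p = 0.724) and -0.29 for miR-205 (SE 0.13, interval -0.57 to -0.01, limma adjusted p = 0.363), and 2.19% of tested miRNAs were called. For miR-203* it was -0.03 (adjusted p = 0.997). The UV differences of the genotypes were therefore not shown to differ for any of the 3, and the interval for miR-203 still holds a difference as large as the KO rise itself. Without normalization the interactions were 0.71, 0.61 and 0.82, beside a median of 0.77.

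**Figure D2:**
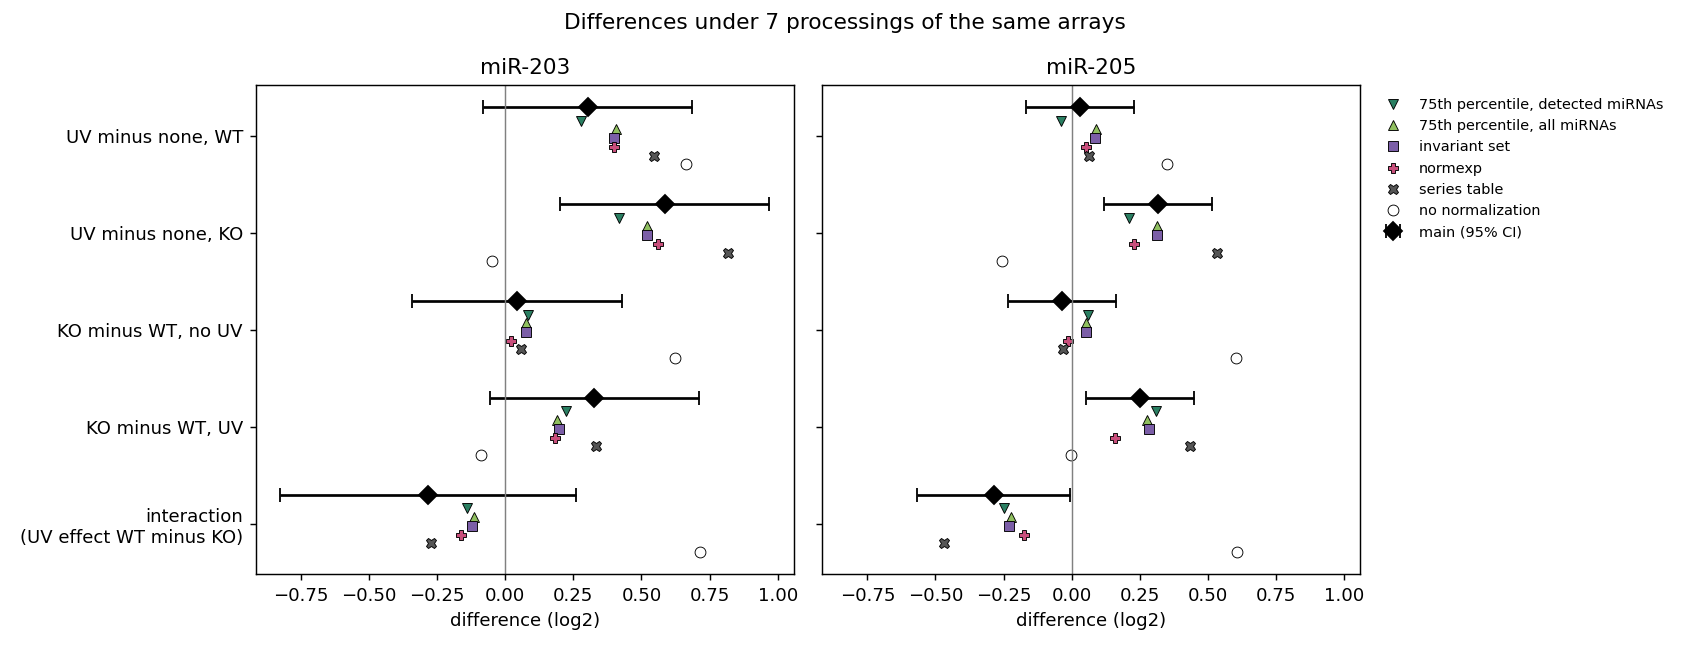
Differences in log2 signal for miR-203 and miR-205 in the 4 group comparisons and the interaction. Black diamonds with bars are the quantile-normalized values with 95% intervals, other symbols are 6 other processings of the same arrays; the KO rises, 0.59 and 0.32, become -0.05 and -0.26 without normalization, and the other processings stay between 0.21 and 0.82.

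Comparing features within one array needs no scaling between arrays. The log2 signal of miR-203 minus that of miR-205 was 0.16, 0.28, 0.15 and 0.28 on the WT arrays without UV and 0.35, 0.57, 0.53 and 0.68 after UV. In KO skin it was 0.32, 0.33, 0.16 and 0.15 without UV and 0.42, 0.35, 0.43 and 0.58 after it. In both genotypes all 4 irradiated arrays lay above all 4 unirradiated ones. How many other pairs of miRNAs separate in this way was not counted. The difference between the probes of miR-205 alone also moved without overlap in WT, by -0.11.

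The difference grew by 0.32 in WT and by 0.21 in KO, which states that the 2 miRNAs changed unequally with irradiation and slide and not which of them moved. KO minus WT was 0.02 without UV and -0.09 after it, with overlapping groups. Between the arms of the hairpin, the log2 signal of miR-203 minus that of miR-203* averaged 6.12 ± 0.09 (SD, n = 4) and 6.05 ± 0.10 in unirradiated WT and KO skin, and 5.97 ± 0.12 and 6.01 ± 0.06 in irradiated WT and KO skin. These groups overlapped in all 4 comparisons, with changes from -0.15 to 0.04.

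**Figure D3:**
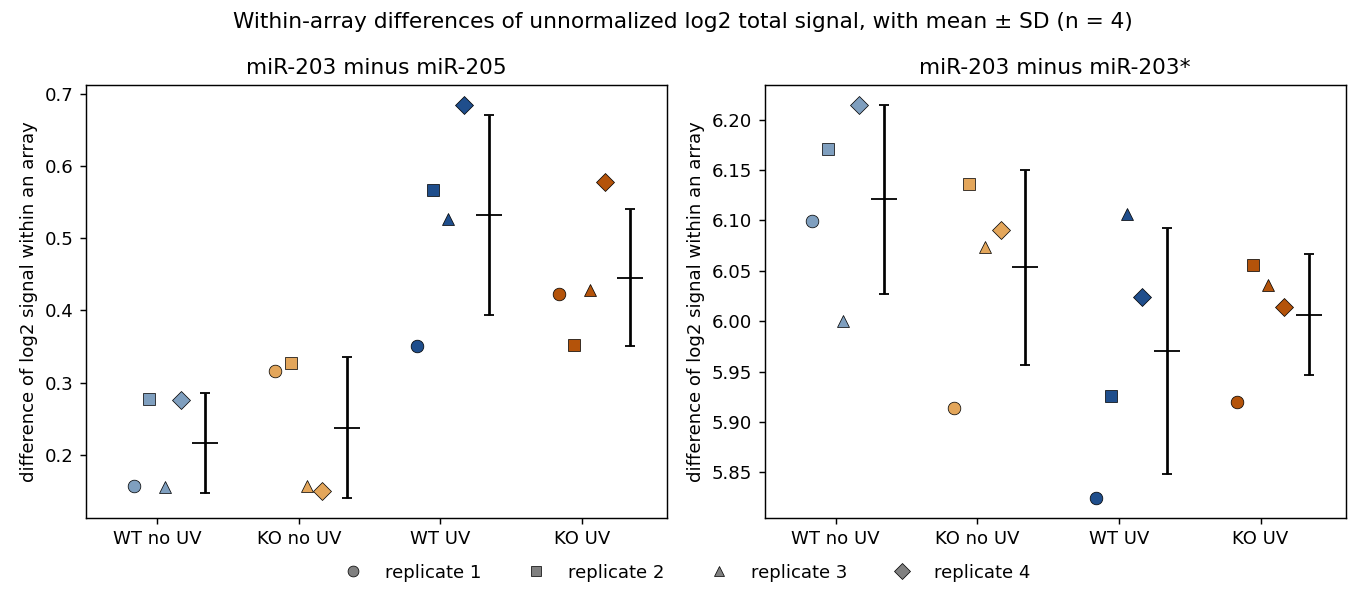
Difference of unnormalized log2 signal within an array, miR-203 minus miR-205 (left) and miR-203 minus miR-203* (right), by group, with points for arrays and bars for the mean ± SD of 4 arrays. On the left the irradiated arrays, 0.35 to 0.68, lie above the unirradiated ones, 0.15 to 0.33, while on the right the groups overlap.

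Each value sums 2 probes, each spotted 10 times, that differ by 1 base in length. For miR-203 the probes match 18 and 17 bases, and for miR-205 they match 15 and 16 bases. All spots were well above background on every array, and 0 were saturated. Spots of the same probe agreed poorly on KO UV replicate 4. Their coefficient of variation there was 44.8% and 30.6% for the 18- and 17-base probes of miR-203, the highest of any array. For the 15- and 16-base probes of miR-205 it was 39.2%, again the highest, and 9.73%. In KO skin the 18-base probe of miR-203 read 6361 to 8399 scaled units without UV and 9265 to 10400 after it, with no overlap and a log2 difference of 0.45. The share of all probes that separate in this way was not computed, here or for the probe separations below.

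The 17-base probe read 3191 to 4653 and 3768 to 7046 units, with overlap and a difference of 0.33. In WT skin the 2 probes differed with UV by 0.32 and 0.18, with overlap for both. For miR-205 after UV, both probes were higher in every KO array than in every WT array, by 0.33 and 0.30. The UV difference in WT was -0.11 for the 15-base probe of miR-205 and 0.00 for the 16-base probe, and in KO it was 0.15 and 0.24.

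Within arrays, the 15-base probe of miR-205 minus the 16-base one moved from -0.65 ± 0.05 (log2, SD, n = 4) in WT no UV to -0.76 ± 0.02 in WT UV, with no overlap. The same difference moved by -0.09 in KO, where the groups overlapped. Of the 4 probes of miR-203*, of 18 to 21 bases and spotted 5 times each, the shortest was never well above background. The 21-base probe, the brightest, was higher with UV by 0.49 in WT and 0.56 in KO with no overlap in either.

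**Figure D4:**
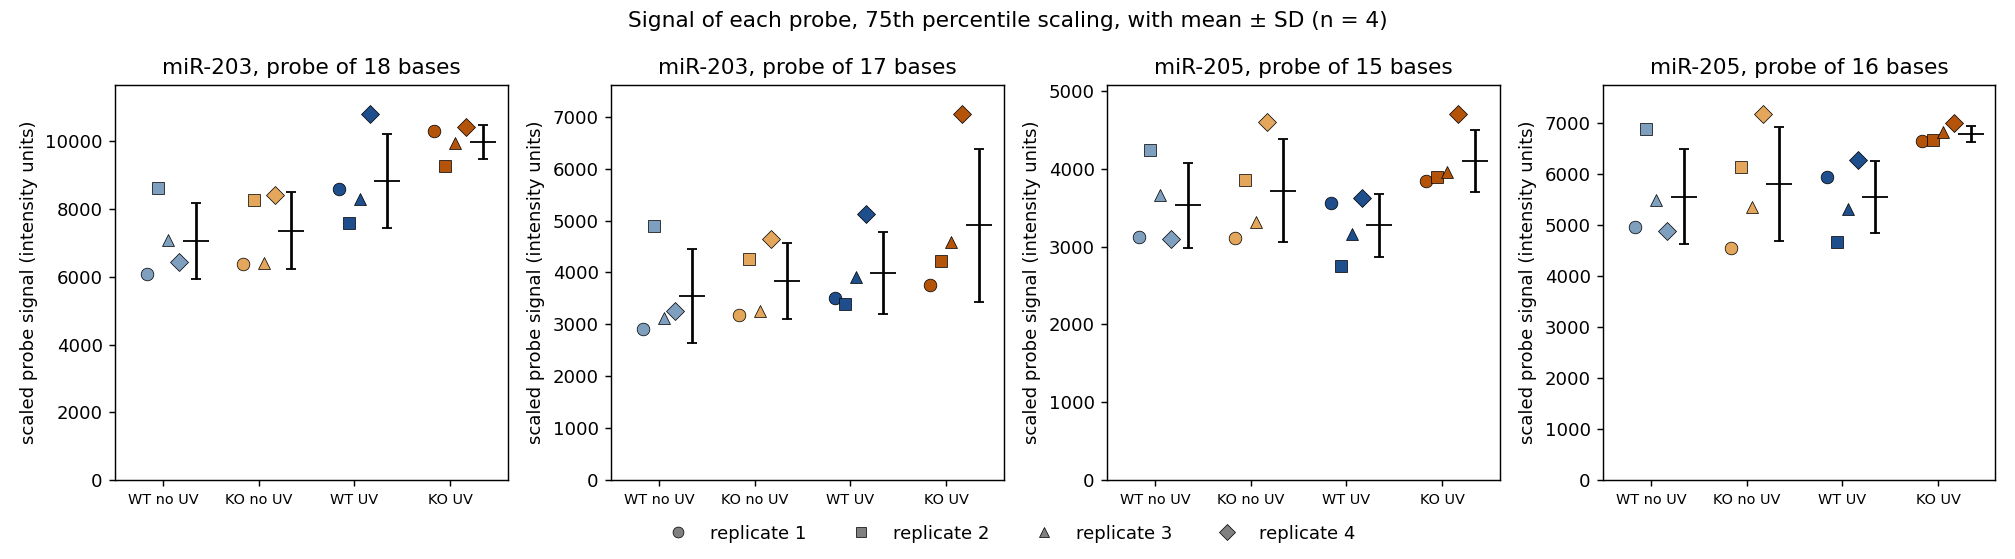
Scaled signal in intensity units of the 2 probes of miR-203 and the 2 probes of miR-205 on each array, by group, with bars for the mean ± SD of 4 arrays. The 18-base probe of miR-203 separates KO UV from KO no UV, both probes of miR-205 separate KO UV from WT UV, and KO UV replicate 4 reads 7046 units on the 17-base probe of miR-203, above all other arrays. The spots behind that reading had a coefficient of variation of 30.6%.

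The miRNAs that ran most like each member over the 16 arrays were found by Pearson correlation of normalized log2 signal among 166 others detected everywhere. The arrays share slides and groups, so these correlations are descriptions. For miR-203 they were miR-203* (r = 0.82), miR-15b (r = 0.80) and miR-146b (r = 0.79), with miR-205 next at 0.78, against a median of -0.05 over all candidates. For miR-205 they were miR-203 (r = 0.78), miR-93 (r = 0.77) and miR-182 (r = 0.73), against a median of 0.00. After subtraction of group means the values fell to 0.59, 0.58 and 0.50 for miR-203, and to 0.59, 0.62 and 0.52 for miR-205. By these values they held places 12, 14 and 25 among the 166 for miR-203, and places 4, 3 and 8 for miR-205. Others thus ran closer to each member within groups.

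These miRNAs were picked by correlation over the same 16 arrays, with the group differences included. A UV difference like that of the member was thus partly built in, and the values below are descriptions, not separate support. MiR-15b, a member of the cell cycle family of miR-16, rose with UV in KO skin by 0.50 (limma adjusted p = 0.0107) and differed by 0.24 in WT (adjusted p = 0.187). MiR-146b, known as a brake on inflammatory signalling, rose by 0.71 in KO (limma adjusted p = 0.00922) and differed by 0.42 in WT (adjusted p = 0.0853). MiR-182, of the miR-183 cluster of epithelial and sensory cells, rose by 0.47 in KO (limma adjusted p = 0.0431), with 0.33 in WT (adjusted p = 0.173). Its KO call was lost in 9 of 16 fits that left out 1 array (0.34 to 0.60, limma adjusted p up to 0.119), those without KO UV replicate 1, 2 or 3, KO no UV replicate 1, 2 or 3, WT UV replicate 3 or WT no UV replicate 1 or 3, and 8 of 13 other fits made it. MiR-93, of the miR-106b cluster, had differences of 0.25 in KO (limma adjusted p = 0.0930) and -0.04 in WT (adjusted p = 0.857). Without normalization the KO differences of miR-15b, miR-182, miR-93 and miR-146b were -0.03, -0.09, -0.36 and 0.22, and none was called.

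The miR-200 family, which holds epithelial cells in their epithelial state, gives the epithelial background. All 5 members were tested, and 4 were called higher after UV in WT and 4 in KO, with 0 called in KO against WT or in the interaction. Over all tested miRNAs 9.21% were called higher in WT and 18.4% in KO. MiR-200c rose by 0.83 in WT (limma adjusted p = 0.000988) and 0.80 in KO (adjusted p = 0.00249). MiR-141, which shares its cluster, rose by 0.80 and 0.44 (limma adjusted p = 0.00120 and 0.0319). MiR-200b rose by 0.44 and 0.39 and miR-429 by 0.53 and 0.37. MiR-200a had 0.30 in WT (limma adjusted p = 0.123) and -0.03 in KO (adjusted p = 0.914).

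The median UV difference of the family was 0.53 in WT and 0.39 in KO, beside 0 over all tested miRNAs. Scaling to the 75th percentile of detected miRNAs ended the KO calls of miR-141, miR-200b (limma adjusted p = 0.0531 for both) and miR-429 (adjusted p = 0.0730), so that 1 of the 5, miR-200c, was called there. Leaving out KO UV replicate 1 or 2 or KO no UV replicate 2 or 3 also ended these 3 calls (adjusted p up to 0.0923), KO UV replicate 4 that of miR-141 and KO no UV replicate 4 that of miR-429. The WT call of miR-200b was lost when either WT UV replicate 1 (limma adjusted p = 0.0598) or replicate 4 of unirradiated WT skin (adjusted p = 0.0518) was left out. Without normalization the KO values of miR-141, miR-200b, miR-429, miR-200a and miR-200c were -0.01, -0.09, -0.09, -0.46 and 0.29, and 0 of the 5 were called. The summed scaled signal of the family was 3213 to 4839 units in unirradiated WT skin and 5224 to 6853 after UV, and in KO skin 4579 to 5148 and 5962 to 7188 units. In this sum both irradiated groups lay above their unirradiated one, and no share over other sums was taken. In scaled signal miR-203* separated in this way in KO alone, with overlap in WT, and miR-205 in neither genotype.

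**Figure D5:**
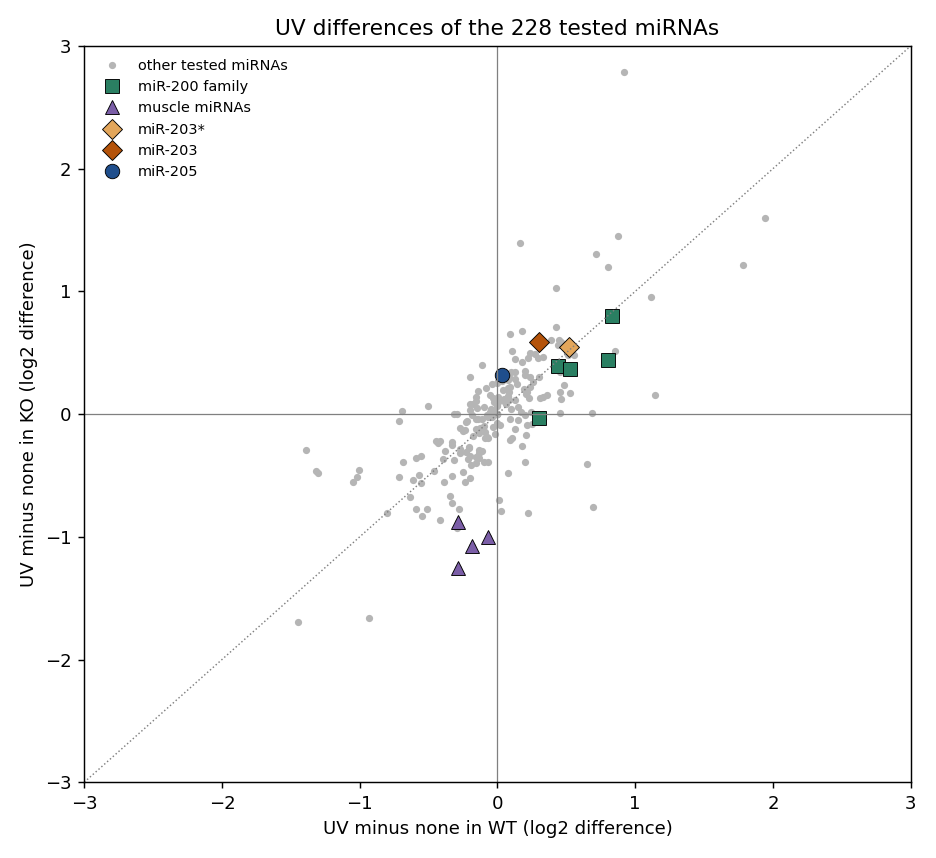
UV minus none in WT (horizontal) against UV minus none in KO (vertical), in normalized log2 units, for the 228 tested miRNAs, with miR-203, miR-205, miR-203*, the miR-200 family and 4 muscle miRNAs marked and the dotted line at equal differences. MiR-203* (0.52, 0.55) lies near the line, miR-203 (0.30, 0.59) and miR-205 (0.03, 0.32) lie above it, and of the marked miRNAs the muscle ones lie lowest in KO, with a median of -1.04; unnormalized values of miR-203 and miR-205 in KO are negative.

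Of 9 miRNAs with a described role in keratinocyte growth or differentiation, 8 were tested. In KO skin 4 were called higher after UV (miR-21, miR-31, miR-34a and miR-34c) and 0 lower, where 18.4% of all tested miRNAs were called higher and 11.4% lower. In WT skin 1 was called higher (miR-34c) and 0 lower, where 9.21% were called higher and 7.02% lower. MiR-21 held the top value of the normalized scale, 14.59, on all 4 WT UV arrays and averaged 14.41 in unirradiated WT skin. A WT rise of miR-21 thus had little room on this scale. Other processings were not examined for the 4 KO calls. MiR-34c was also the 1 member called lower in KO than in WT after UV, where 2.19% of all tested miRNAs were called. It was detected on 3 of 4 WT and 2 of 4 KO arrays without UV, and on all 4 in both irradiated groups. It was therefore tested only through groups where it was high. Its unirradiated KO mean was the floor of the scale, 4.28, so the size of its UV differences depends on that floor. The list's median UV difference was 0.34 in KO and 0.11 in WT. MiR-31, known from growing keratinocytes and hair follicles, rose by 1.30 in KO (limma adjusted p = 0.00328) and differed by 0.71 in WT (adjusted p = 0.0558).

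Markers of other tissues in the samples moved as well. The 4 miRNAs of skeletal muscle summed to 19897 to 44128 scaled units in unirradiated WT skin and 19928 to 24033 after UV, and in KO skin to 37487 to 56530 and 18108 to 24209 units. All 4 were called lower after UV in KO (median -1.04) and 0 in WT (median -0.23), where 11.4% and 7.02% of all tested miRNAs were called lower. The contrast in which miR-203 and miR-205 were called was therefore also the one in which the muscle miRNAs fell, and their part in the result was not tested.

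Of 6 miRNAs of dermal fibroblasts and vessels, 5 are on the array, and 1 was higher and 2 were lower after UV in KO, with 1 and 1 in WT. Of 5 leukocyte miRNAs, 1 was higher and 1 lower in KO, and 0 and 1 in WT. Over all tested miRNAs 29.8% were called either way in KO and 16.2% in WT. Of 2 erythrocyte miRNAs 1 was tested, and it was called in no contrast.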

How the data were processed

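Agilent single-colour mouse miRNA arrays were hybridised with 100 ng of skin total RNA each. The authors scanned them and deposited one text file per array from Agilent Feature Extraction 9.5.3.1 (design 19119, mm9). Its total gene signal, a background-subtracted intensity summed over the probes of a miRNA, was the value used here, and the deposited spot intensities (mean and background) gave the normexp alternative. The authors also deposited a table of normalized log2 signals, used as an alternative. Their methods name invariant and quantile normalization with limma. Whether replicate numbers mark litters or cages is not stated, and whether samples came from separate animals was taken from the methods (4 animals per group).

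Signals were quantile normalized (limma 3.58.1, R 4.3.3), floored at 19.4 units (the 5th percentile of detected signals) and put on the log2 scale. The 228 miRNAs that every array of any 1 group detected were fitted with 4 group means over 16 arrays, and Benjamini-Hochberg adjusted p-values under 0.05 were called. The moderation was slight (prior df 0.802 beside 12 residual df), and 11 of the 228 lay at the floor on every array. Without those 11 the prior df was 2.75. Exact permutation tests were two-sided. The fit was tested on simulated data. Array number, 4 a group, limits the precision.

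The rule for the members uses no measured value, but the members, lists and tests were chosen with earlier results of these data known. Named miRNAs were the members, for each the 3 others detected everywhere with the highest correlation, the miR-200 family, and list members where called. From a list's other members only counts and medians were given.

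Same-numbered arrays were checked for shared deviations from group means. The correlations ran from 0.132 to 0.320 for UV in WT, and from -0.347 to 0.320 in the other comparisons, so that every pair exceeded 0.1 for UV in WT alone; for KO against WT after UV 2 pairs were at 0.316 and 0.320 and 2 at 0.0111. Alternatives were other normalizations, filters and floors, the replicate block, slide row, fits of 2 groups, the methods' threshold (p under 0.001, read here as the adjusted p, and at least 1.5-fold) and each array left out. The fit without floored miRNAs and the alternatives for miRNAs other than the members were added after the data were seen. Python 3.11.15 with numpy 2.4.6 and pandas 2.3.3 read the files.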

Additional observations from a re-analysis of the deposited data

Results flagged for a closer look

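Each group of 4 arrays was screened for a single array far from the other 3, in 40 combinations of group and measure, and 4 stood apart by Dixon's criterion at 95%, which reads the gap to the nearest array over the group's range. Chance alone marks about 1 in 20 groups. In WT UV, replicate 4 had a normalized log2 signal of miR-203 of 13.88, where the other 3 arrays were tied at 13.58 by the normalization, so its gap over range of 1.0 is set by those ties. The same array had the highest total signal of miR-203 in that group, 20138.5 units (gap over range 0.889). In KO UV, replicate 4 had the highest total signal of miR-203, 15676.8 units (0.929), and its 15-base probe of miR-205 minus the 16-base probe, in log2 signal, was -0.57, where the other 3 arrays were lower (0.939). The first 3 values were high ones of miR-203 on irradiated arrays, and without KO UV replicate 4 the UV difference of miR-203 in KO was 0.37 in place of 0.59. On KO UV replicate 4 the spots of a probe also varied widely. Their coefficient of variation was 44.8% and 30.6% for the probes of miR-203 and 39.2% for the 15-base probe of miR-205, each the highest of any array.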

How the results depend on the processing

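Values are log2 differences by limma. With each of the 16 arrays left out in turn, KO minus WT without UV ran from -0.024 to 0.12 for miR-203 and from -0.10 to 0.011 for miR-205, and after UV from 0.12 to 0.47 and from 0.18 to 0.30. The UV difference in WT ran from 0.21 to 0.34 for miR-203 and from -0.014 to 0.10 for miR-205, in KO from 0.37 to 0.72 and from 0.28 to 0.39, and the interaction from -0.43 to -0.074 and from -0.36 to -0.22. Counts of called miRNAs ran from 0 to 16 (KO against WT without UV; 16 without WT no UV replicate 2), 5 to 7 (after UV), 30 to 43 (UV in WT), 35 to 70 (UV in KO; 35 without KO no UV replicate 3) and 1 to 12 (interaction; 12 without WT no UV replicate 2), beside 0, 5, 37, 68 and 5 with all arrays. The interaction of miR-203* ran from -0.14 to 0.041, the UV difference of miR-93 in WT from -0.11 to 0.0023 and that of miR-200a in KO from -0.12 to 0.068.

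Scaling to the 75th percentile of detected miRNAs turned miR-205 to 0.062 (KO minus WT without UV) and -0.038 (UV in WT) and miR-200a in KO to 0.010, and lost the KO calls at 0.42 for miR-203 and 0.21 for miR-205 and the WT call of miR-203* at 0.43. It gave 3 calls without UV and 0 for the interaction. Scaling to all miRNAs and to the invariant set turned the first of these to 0.053 each, miR-93 in WT to 0.068 and 0.063 and miR-200a in KO to 0.11 each, made the UV difference of miR-203 in WT a call at 0.41 and 0.40, and gave 2 and 0 interaction calls. So did normexp at 0.40 (0 interaction calls; miR-203* without UV at -0.033) and the deposited table at 0.55, which counted 9, 3, 58 and 2 calls for KO against WT without and after UV, UV in WT and the interaction.

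Without normalization, KO minus WT without UV was called at 0.62, 0.60 and 0.69 for miR-203, miR-205 and miR-203*, and for the first 2 turned to -0.090 and -0.0027 after UV. UV in WT was called for miR-203 at 0.66, UV in KO was -0.049 and -0.26 and the interaction 0.71 and 0.61, with 111, 130 and 138 calls without UV, for UV in KO and for the interaction. There miR-203* was -0.13 after UV, -0.0019 for UV in KO and 0.82 for the interaction, miR-93 was 0.33 in WT and -0.36 in KO, and in KO miR-15b, miR-182, miR-141, miR-200b and miR-429 were -0.030, -0.086, -0.0069, -0.088 and -0.092. The causes were not tested.

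Without the filter there were 9 calls without UV and 3 for the interaction, without floored miRNAs 10 and 3, with detection on all arrays 8 and 0, and 0 after UV. A floor of 1 gave 4, 3, 56 and 2 calls (without UV, after UV, UV in WT, interaction). Slide row as a term lost the KO calls at 0.57 and 0.29 and that of miR-203* in WT at 0.46, turned miR-93 in WT to 0.023, and gave 1, 31 and 0 calls after UV, for UV in KO and for the interaction. Fits of 2 groups lost the same calls at 0.59, 0.32 and 0.52 (27 calls for UV in KO), as did the methods' threshold, with its p read as adjusted, at the same values, with miR-203* in KO at 0.55 (1, 9, 3 and 0 calls after UV, for UV in WT and in KO, and for the interaction) and, for the members, the exact permutation test, which called miR-203 for UV in WT at 0.30. With the replicate block the interaction gave 1 call, and UV in KO was 0.59 (limma adjusted p = 0.0203) for miR-203 and 0.32 (0.0299) for miR-205, so the block changed no call of these 2 miRNAs. All spots of both miRNAs were well above background.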
